A study of Mus musculus with 16 samples.

Results

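The enzymes that remove superoxide and peroxides directly were followed in mouse retinal pigment epithelium (RPE) as 8 named genes: the superoxide dismutases Sod1, Sod2 and Sod3, the catalase gene Cat, and the glutathione peroxidases Gpx1, Gpx3, Gpx4 and Gpx8. They are 8 of the 51912 genes in the count table, were found by their Ensembl identifiers, and all passed the filter on low counts that left 15380 genes for testing. The mice were 40-week-old males on the C57BL/6 background, of the wild type or of a SUCNR1 KO line, which lacks the succinate receptor gene Sucnr1. Both genotypes were studied without treatment and with hydroquinone, a pro-oxidant constituent of tobacco smoke, at a dose and for a time that the labels do not give. The labels do not say how the knockout was made or whether it is restricted to a cell type. Each of the 4 groups had 4 libraries, each from 1 eye, and by the titles these came from 2 mice (untreated wild type), 4 mice (wild type with hydroquinone), 3 mice (untreated knockout) and 4 mice (knockout with hydroquinone).

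Superoxide dismutases turn superoxide into oxygen and hydrogen peroxide. SOD1 works with copper and zinc in the cytosol, SOD2 with manganese in the mitochondrial matrix, and SOD3 with copper and zinc outside the cell. Catalase, held mostly in peroxisomes, splits hydrogen peroxide into water and oxygen, while most glutathione peroxidases reduce peroxides with electrons from glutathione. The RPE lies between the photoreceptors and the choroid, works under light and high oxygen, and digests shed photoreceptor outer segments, so it is a tissue in which these enzymes have long been studied.

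The glutathione peroxidases differ at the residue that meets the peroxide, and this difference divides the members. In GPX1, GPX2, GPX3 and GPX4 it is selenocysteine, encoded by TGA, a stop codon elsewhere, and in GPX7 and GPX8 it is cysteine. The coding stretch around that codon was read from the GENCODE vM21 transcripts (GRCm38) and is printed for the 4 members and for Gpx2 and Gpx7, the other family members with counts, with the active-site codon in capitals and the coding strand shown:
Gpx1: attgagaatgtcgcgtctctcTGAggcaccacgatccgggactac
Gpx2: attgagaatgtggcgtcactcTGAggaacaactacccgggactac
Gpx3: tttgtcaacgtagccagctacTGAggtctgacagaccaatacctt
Gpx4: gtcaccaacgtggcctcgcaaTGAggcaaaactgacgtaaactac
Gpx8: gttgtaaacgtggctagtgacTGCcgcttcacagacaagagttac
Gpx7: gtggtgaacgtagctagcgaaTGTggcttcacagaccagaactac
The codons lie in Gpx1 (codon 47, chr9:108339451-108339453, plus strand, exon 1), Gpx3 (codon 73, chr11:54907256-54907258, plus strand, exon 2), Gpx4 (codon 73, chr10:80054737-80054739, plus strand, exon 3) and Gpx8 (codon 79, chr13:113045661-113045663, minus strand, exon 2). Those of the other family members lie in Gpx2 (codon 40, chr12:76795256-76795258, minus strand, exon 1) and Gpx7 (codon 56, chr4:108403430-108403432, minus strand, exon 2). Over these 45 bases Gpx1 and Gpx2 shared 39 and Gpx7 and Gpx8 shared 35, the most alike pairs, and Gpx1 and Gpx8 shared 23. Gpx3 shared 30 with Gpx7 and 26 with Gpx8, against 24 with Gpx4 and 21 with each of Gpx1 and Gpx2. The likeness of the stretch as a whole therefore did not separate the selenocysteine from the cysteine group. Transcripts of the selenocysteine group and of the cysteine group were both present in every library.

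The libraries held 21113549 to 35332444 counts, and the members were counted deeply, from 959 counts (the lowest library of Gpx8) to 34088 counts (the highest of Gpx3). Levels are given as CPM, counts scaled to a library of 1000000 after TMM adjustment of its size. The library identifiers come in 2 forms, 9 without and 7 with a letter, whose meaning the labels do not give; both forms occur in each group, and each mouse with both eyes sampled has 1 of each. Sucnr1 itself had 0 to 17 counts in the wild-type libraries and 0 to 3 in the knockout libraries, too few to check the labels library by library. All 12 RPE markers were counted in every library, with a summed level of 20942 to 33265 CPM, although Best1 was low, at a mean of 2.08 CPM. RNA of neural retina was present too: the 15 rod photoreceptor markers summed to 263 CPM in the lowest and 25609 CPM in the highest library, and the highest in each knockout group were replicate 4 of untreated knockout and replicate 1 of knockout with hydroquinone. Markers of other eye tissues were counted as well: the 8 corneal epithelium markers summed to 3631 to 28423 CPM, in replicate 2 of wild type with hydroquinone above the RPE markers, and the 8 oligodendrocyte markers to 146 to 10318 CPM. By group, the mean log2(CPM + 1) of the corneal list was 9.34 ± 1.17 in treated and 8.92 ± 0.708 in untreated wild type, and 8.44 ± 0.777 in treated and 8.84 ± 0.421 in untreated knockout (SD, n = 4). That of the oligodendrocyte list was 3.53 ± 1.77 in treated and 6.46 ± 2.56 in untreated wild type, and 4.87 ± 2.25 in treated and 6.25 ± 1.54 in untreated knockout (SD, n = 4). The part of these tissues in the members' values was not tested beyond the relations with marker lists over mice and fits for the rod markers. Those fits took the rod marker score as covariate or left out the library highest in rod markers of each group. Such bulk samples cannot tell fewer cells of a type from less RNA per cell.

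Per kilobase of exon, the peroxidases Gpx4 and Gpx3 stood highest, and Sod2 and Sod3 lowest. With the union of all annotated exons as length, Gpx4 averaged 498 ± 69.4 CPM per kilobase and Gpx3 368 ± 121 (SD, n = 16 libraries). Gpx4 was above Gpx3 in 12 of 16 libraries, so their order was not the same throughout. Gpx1 followed at 131 ± 31.6 and Cat at 112 ± 19.8 CPM per kilobase, with Gpx1 above Cat in 10 of 16 libraries. Sod1 (52.7 ± 5.73), Gpx8 (46.4 ± 6.00), Sod3 (24.7 ± 7.13) and Sod2 (14.7 ± 0.841) came last, with Sod1 above Gpx8 in 14 of 16 libraries and the other steps in all 16. The place of Sod1 and Sod2 rests on the length used, because the union of exons is 3970 bp for Sod1 and 10008 bp for Sod2, against 641 bp and 5861 bp for the principal transcript. With principal transcripts, a length chosen after seeing the data, Sod1 rose to 326 ± 35.5 CPM per kilobase, the third place behind Gpx4 (896 ± 125) and Gpx3 (418 ± 137), and Sod2 (25.1 ± 1.44) and Sod3 (24.7 ± 7.13) were level. Sod1 made up 57.4% of the summed dismutase level with the first length and 86.7% with the second.

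Among the superoxide dismutases, group means lay between 202 and 218 CPM for the cytosolic and between 144 and 151 CPM for the mitochondrial enzyme, and between 73.0 and 112 CPM for the secreted one. Sod1 (ENSMUSG00000022982, chr16:90220754-90226329, plus strand, GRCm38 as for all coordinates here) encodes the cytosolic enzyme. Sod1 was at 203, 204, 231 and 169 CPM in the libraries of untreated wild type and at 189.6, 243, 209.6 and 231 CPM in those of wild type with hydroquinone. In knockout, Sod1 was at 225, 188, 226 and 170.4 CPM without and at 204, 201, 210.4 and 241 CPM with hydroquinone. The 4 groups overlapped, with the lowest library in untreated wild type and the highest in wild type with hydroquinone. The mitochondrial gene Sod2 (ENSMUSG00000006818, chr17:13006846-13040063, plus strand) was the steadiest member. Sod2 was at 139, 151, 155 and 133 CPM in the libraries of untreated wild type and at 144, 148, 151 and 146 CPM in those of wild type with hydroquinone. In knockout, Sod2 was at 162, 133, 160.3 and 148 CPM without and at 145, 151, 150.1 and 139 CPM with hydroquinone. Every library of every group lay within a range of 1.22-fold. About 21% of the 50-base windows of the Sod2 exons also occur in other annotated genes (AC166110.4, Rps6ka2 and Cdkn1a), so part of its counts could be shared with them. Sod3 (ENSMUSG00000072941, chr5:52363791-52371418, plus strand) encodes the secreted enzyme that binds to extracellular matrix. Sod3 was at 69.3, 90.8, 108 and 101 CPM in the libraries of untreated wild type and at 69.3, 72.1, 78.7 and 71.7 CPM in those of wild type with hydroquinone. In knockout, Sod3 was at 87.9, 68.4, 125 and 84.7 CPM without and at 64.99, 112, 164 and 107 CPM with hydroquinone. The wild-type libraries with hydroquinone were tightly grouped and low, while the knockout libraries with hydroquinone held both the lowest and the highest value of all 16.

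Catalase had group means of 266 to 318 CPM with SDs of 43.9 to 63.6 CPM. Cat (ENSMUSG00000027187, chr2:103453849-103485160, minus strand) encodes the only catalase of the mouse. Cat was at 224, 299, 325 and 216 CPM in the libraries of untreated wild type and at 281, 221, 352 and 353 CPM in those of wild type with hydroquinone. In knockout, Cat was at 341, 306, 285 and 221 CPM without and at 270.5, 297, 334 and 371 CPM with hydroquinone. Both eyes of 1 untreated wild-type mouse (replicates 3 and 4) differed 1.51-fold, the widest gap between eyes of a mouse for any member. Cat overlapped between treated and untreated libraries in both genotypes. Over the 3 mice with both eyes and the 8 members, eyes of a mouse differed between 1.00-fold and 1.51-fold.

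Of the 4 glutathione peroxidases among the members, Gpx4 was the most abundant and Gpx1 and Gpx3 the most variable. Gpx1 (ENSMUSG00000063856, chr9:108338903-108340343, plus strand) encodes the cytosolic and mitochondrial enzyme that acts on hydrogen peroxide. Gpx1 was at 245, 199.7, 149 and 216 CPM in the libraries of untreated wild type and at 218, 296, 92.8 and 174 CPM in those of wild type with hydroquinone. In knockout, Gpx1 was at 204, 165, 173 and 144 CPM without and at 176, 197, 169 and 195 CPM with hydroquinone. Wild type with hydroquinone held both the lowest and the highest library of Gpx1, 3.18-fold apart. Gpx3 (ENSMUSG00000018339, chr11:54902453-54910377, plus strand) encodes the secreted, plasma-type peroxidase. Gpx3 was at 467, 637, 968 and 788 CPM in the libraries of untreated wild type and at 408, 459, 484 and 528 CPM in those of wild type with hydroquinone. In knockout, Gpx3 was at 648, 488, 959.9 and 809 CPM without and at 428, 812, 1103 and 687 CPM with hydroquinone. The 4 wild-type libraries with hydroquinone reached no higher than 528 CPM, and 1 library of each other group lay in that range too.

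Gpx4 (ENSMUSG00000075706, chr10:80047166-80056439, plus strand) encodes the peroxidase that reduces lipid peroxides within membranes and holds back ferroptosis. Gpx4 was at 784, 831, 791 and 745 CPM in the libraries of untreated wild type and at 868, 932, 758 and 1098 CPM in those of wild type with hydroquinone. In knockout, Gpx4 was at 893, 667, 927 and 743 CPM without and at 841, 835, 932 and 1096 CPM with hydroquinone. The highest library of each genotype was one with hydroquinone, and the treated and untreated libraries overlapped in both genotypes. Gpx4 counts are uncertain in part, since 34.7% of its 50-base exon windows also occur in the processed copy Gpx4-ps2, which was itself counted at 46.9 to 84.9 CPM. Gpx8 (ENSMUSG00000021760, chr13:113042753-113046410, minus strand) encodes a cysteine peroxidase of the endoplasmic reticulum membrane. Gpx8 was at 57.003, 48.6, 54.2 and 43.1 CPM in the libraries of untreated wild type and at 41.1, 49.997, 38.05 and 48.8 CPM in those of wild type with hydroquinone. In knockout, Gpx8 was at 53.01, 51.2, 59.1 and 37.9 CPM without and at 43.8, 50.5, 48.7 and 52.3 CPM with hydroquinone. Untreated knockout held both the lowest and the highest library of Gpx8. The plot of members by library shows all these values.

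**Figure D1:**
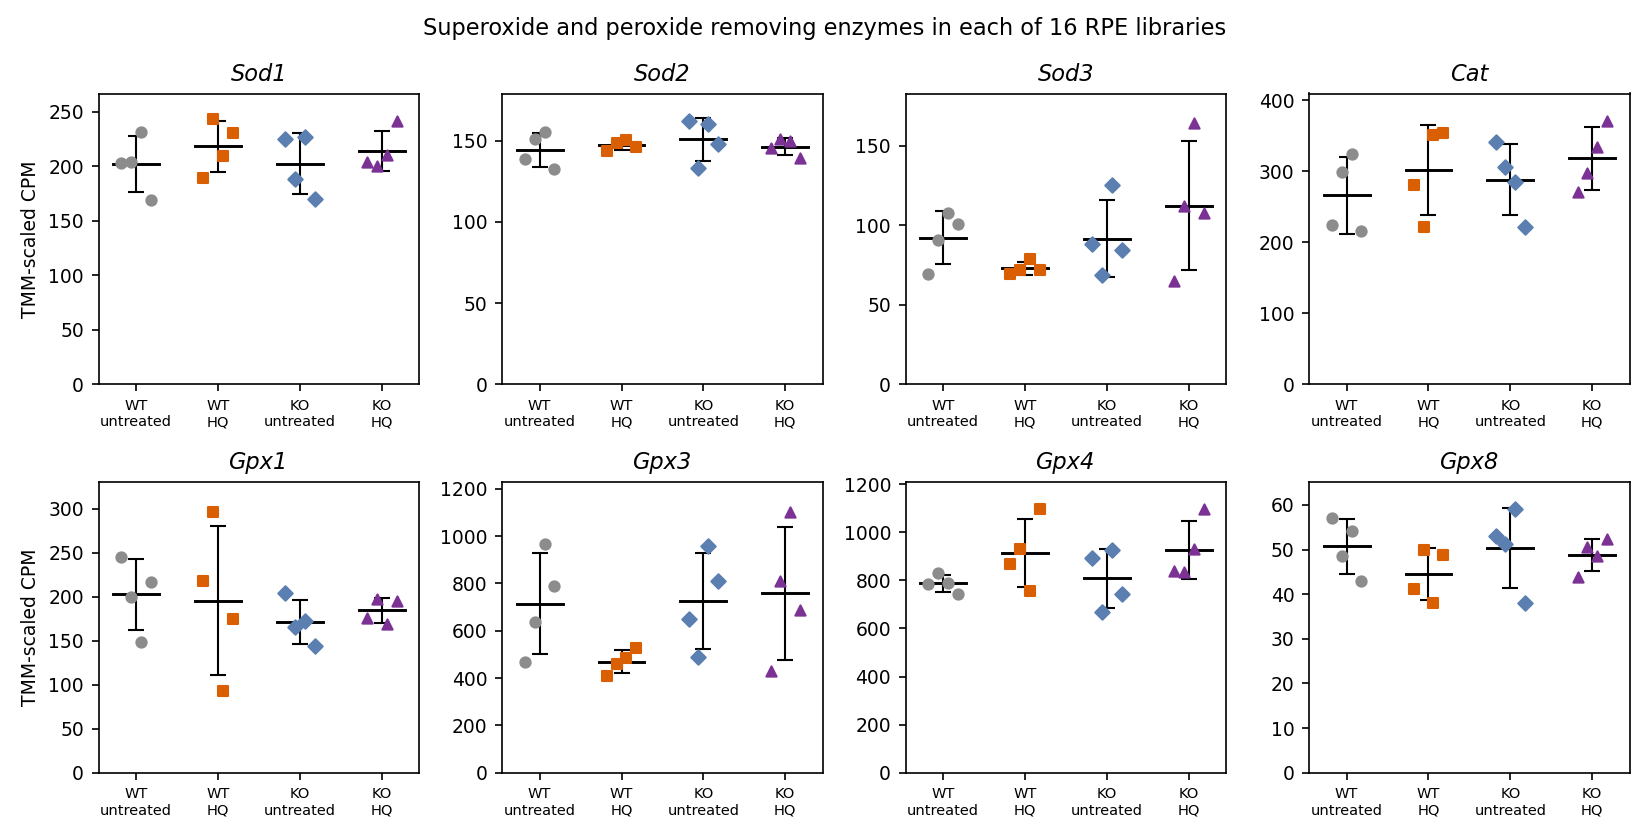
Level of each member (TMM-scaled CPM, linear axis from 0) in every library, by group (WT, wild type; KO, Sucnr1 knockout; HQ, hydroquinone); points are libraries, the wide line is the mean and the bars are the SD over 4 libraries. Treated and untreated libraries of a genotype overlap for all 8 genes, Sod2 is nearly flat at 133 to 162 CPM, and Gpx3 is low and narrow (408 to 528 CPM) in wild type with hydroquinone. The share of all tested genes that overlap likewise is not given, here or in the text, so the overlap is a description.

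Hydroquinone exposure was compared with no exposure to ask whether these enzymes respond to the oxidant. No member passed the threshold of an adjusted p of 0.05 in edgeR's quasi-likelihood test, in wild type, in knockout or averaged over genotype, against 0.0065%, 0.0455% and 0.0845% of all 15380 tested genes called in these comparisons. DESeq2 and limma called 0 of 8 as well, with their own shares of all genes not given here. In edgeR the members with an unadjusted p below 0.05 numbered 1, 0 and 0, where 4.28% of all tested genes lay below 0.05 in wild type, 2.96% in knockout and 5.72% in the average. Averaged over genotype, the log2 fold change was 0.10 (SE 0.09, 95% interval -0.09 to 0.28) for Sod1, -0.0088 (SE 0.06, 95% interval -0.13 to 0.12) for Sod2 and -0.02 (SE 0.17, 95% interval -0.37 to 0.33) for Sod3. For Cat it was 0.16 (SE 0.13, 95% interval -0.12 to 0.44). For the peroxidases it was 0.03 (SE 0.18, 95% interval -0.36 to 0.41) for Gpx1, -0.27 (SE 0.20, 95% interval -0.69 to 0.15) for Gpx3, 0.21 (SE 0.10, 95% interval -0.0059 to 0.42) for Gpx4 and -0.12 (SE 0.10, 95% interval -0.32 to 0.09) for Gpx8. The 8 intervals together ran from 0.62-fold to 1.36-fold, so each lay within a 2-fold change in either direction. The median over the 8 members was 0.0088 and that of all tested genes 0.0046, with 4 members above and 4 below 0. The direction of Cat in knockout turned with the form of the identifier, with log2 fold changes of 0.14 in all libraries, -0.22 within those without and 0.48 within those with a letter (adjusted p = 0.29 in edgeR for the last). On simulated counts for this comparison, with 200 of 15380 genes changed, 72% of the 2-fold changes were called. The changed genes were drawn from all tested genes and the libraries were simulated as independent, so the power for the members themselves was not measured.

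The smallest unadjusted p of the average belonged to Gpx4 (unadjusted p of 0.056, adjusted p = 0.87 in edgeR), whose mean was 788 ± 35.2 and 914 ± 142 CPM in untreated and treated wild type and 808 ± 123 and 926 ± 122 CPM in untreated and treated knockout (SD, n = 4). In wild type alone, Gpx3 averaged 715 ± 214 CPM without and 469.8 ± 50.1 CPM with hydroquinone, a log2 fold change of -0.61 (SE 0.28, 95% interval -1.20 to -0.01) with an unadjusted p of 0.046 and an adjusted p of 0.99 in edgeR. The interval of Gpx3 was the only one of the 8 in wild type that reached beyond a 2-fold change. In knockout the log2 fold change of Gpx3 was 0.06 (SE 0.28, 95% interval -0.53 to 0.65), and that of Sod3 was -0.34 (SE 0.23) in wild type and 0.29 (SE 0.23) in knockout. The knockout value of Sod3 rested on single libraries, being 0.03 without replicate 3 and 0.48 without replicate 1 of knockout with hydroquinone. Without replicate 3 of untreated wild type, the highest Gpx3 library of its group and 1 of 2 libraries with the fewest detected genes, the value of Gpx3 in wild type was -0.42.

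Knockout and wild type were compared to ask whether the receptor's loss alters these enzymes, and no member passed the threshold in untreated mice, under hydroquinone, averaged over treatment or in the interaction, where 0.0% of all tested genes were called by edgeR in each. DESeq2 and limma called 0 of 8 members too, with their own shares of all genes not given here. Averaged over treatment, the largest log2 fold changes of knockout against wild type were those of Gpx3, 0.36 (SE 0.20, 95% interval -0.06 to 0.77), and Sod3, 0.31 (SE 0.17, 95% interval -0.05 to 0.66). Within libraries whose identifiers carry no letter these values were 0.04 for Gpx3 and 0.03 for Sod3. The other members lay between -0.16 (Gpx1, SE 0.18) and 0.10 (Cat, SE 0.13), and all 8 intervals lay within a 2-fold change. Under hydroquinone, 2 members had an unadjusted p below 0.05, against 4.18% of all tested genes. Sod3 averaged 72.97 ± 4.02 CPM in wild type and 112 ± 40.7 CPM in knockout, a log2 fold change of 0.62 (SE 0.23, 95% interval 0.12 to 1.12) with an unadjusted p of 0.018 and an adjusted p of 1.00 in edgeR. Gpx3 averaged 469.8 ± 50.1 CPM and 757 ± 280.3 CPM, a log2 fold change of 0.69 (SE 0.28, 95% interval 0.10 to 1.28) with an unadjusted p of 0.026 and an adjusted p of 1.00 in edgeR. This comparison and that of hydroquinone in wild type share the 4 libraries of wild type with hydroquinone. In both genes 3 of 4 knockout libraries lay above the 4 wild-type libraries, and replicate 1, the one highest in rod markers, lay among or below them. The difference of the hydroquinone effects between genotypes had an unadjusted p of 0.076 for Sod3 (log2 0.63, SE 0.33) and 0.11 for Gpx3 (log2 0.67, SE 0.39), both with an adjusted p of 1.00 in edgeR. Without replicate 3 of knockout with hydroquinone the Sod3 and Gpx3 differences under hydroquinone were 0.37 and 0.44 and the differences of the hydroquinone effects 0.38 and 0.41, and within libraries whose identifiers carry no letter the differences under hydroquinone were 0.24 and 0.43.

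The list of 6 ciliary and iris epithelium markers varied with these 2 genes. All 6 were counted in every group, so none was at 0, and their mean log2(CPM + 1) was 5.84 ± 0.146 in wild type with hydroquinone against 6.20 ± 0.283 in knockout with hydroquinone, 6.08 ± 0.178 in untreated wild type and 6.09 ± 0.190 in untreated knockout (SD, n = 4). Their summed level ranged from 703 to 904 CPM in untreated and 659.5 to 882 CPM in treated wild type, and from 691 to 808 CPM in untreated and 671 to 908 CPM in treated knockout. The summed level overlapped between all groups, being carried mainly by Wls and Aqp1. The part of these markers in the Sod3 and Gpx3 values was not tested.

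Genes that supply or work beside the members were examined as 7 lists, and 4 genes on 2 of them rose under hydroquinone. Averaged over genotype, 2 of 7 glutathione supply genes and 2 of 11 peroxiredoxin and thioredoxin genes passed the threshold upward in edgeR and none downward, against 0.0845% of all tested genes. All 7 glutathione supply genes had a log2 fold change above 0 (median 0.34), against 51.2% of all tested genes. The lists were chosen with earlier results of these data known. The shares given for all 7 lists are therefore descriptions and not tests of enrichment. Gclc encodes the catalytic subunit of the enzyme that makes the first intermediate of glutathione. Gclc was at 63.4, 61.2, 77.01 and 71.3 CPM in untreated and 111, 93.4, 119.9 and 124 CPM in treated wild type, and at 71.2, 81.5, 74.96 and 67.1 CPM in untreated and 101, 133, 129 and 129.99 CPM in treated knockout. No treated library overlapped the untreated ones of its genotype, and the log2 fold change was 0.73 (SE 0.08, adjusted p = 8.0e-04 in edgeR). The share of all tested genes without such overlap is not given, here or for the genes below. Called genes were named from the same values, so their lack of overlap is a description and adds no support. Pgd, which makes NADPH for glutathione recycling, was at 120.4, 116, 91.8 and 106 CPM in untreated and 161, 179, 142 and 151 CPM in treated wild type. In knockout Pgd was at 102, 109.7, 98.7 and 88.8 CPM without and 138, 199, 182 and 174 CPM with hydroquinone. Its groups were again apart in both genotypes, with a log2 fold change of 0.67 (SE 0.09, adjusted p = 0.0037 in edgeR).

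Srxn1 encodes sulfiredoxin, which restores over-oxidised peroxiredoxins, and Txnrd1 the cytosolic thioredoxin reductase, itself a selenoprotein. Srxn1 averaged 50.2 ± 5.0 and 72.4 ± 5.0 CPM in untreated and treated wild type and 50.8 ± 5.45 and 86.3 ± 7.19 CPM in untreated and treated knockout (SD, n = 4), with no overlap by treatment within a genotype and a log2 fold change of 0.65 (SE 0.07, adjusted p = 8.0e-04 in edgeR). Txnrd1 averaged 173 ± 11.1 and 238 ± 23.4 CPM in wild type and 161 ± 21.4 and 278 ± 60.1 CPM in knockout (SD, n = 4), a log2 fold change of 0.63 (SE 0.11, adjusted p = 0.033 in edgeR). The call of Txnrd1 held in 8 of 27 alternatives, against 26 for Gclc and Srxn1 and 25 for Pgd. Pgd missed the threshold when both eyes of a mouse were summed (adjusted p = 0.10 in edgeR), and all 4 genes did within the 9 libraries whose identifiers carry no letter (adjusted p = 1.00 in edgeR, log2 fold changes of 0.51 to 0.70). In knockout alone, where edgeR called 0.0455% of all tested genes, it called Gclc (0.74, SE 0.12, adjusted p = 0.034), Pgd (0.80, SE 0.12, adjusted p = 0.033) and Srxn1 (0.77, SE 0.10, adjusted p = 0.0081). In wild type alone edgeR called none of the 7 lists' genes, where it called 0.0065% of all tested genes. There 4 of 7 glutathione supply and 3 of 11 peroxiredoxin and thioredoxin genes had an unadjusted p below 0.05, against 4.28% of all tested genes. DESeq2 called Gclc, Pgd and Srxn1 in wild type too, with its own share of all genes not given here.

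**Figure D2:**
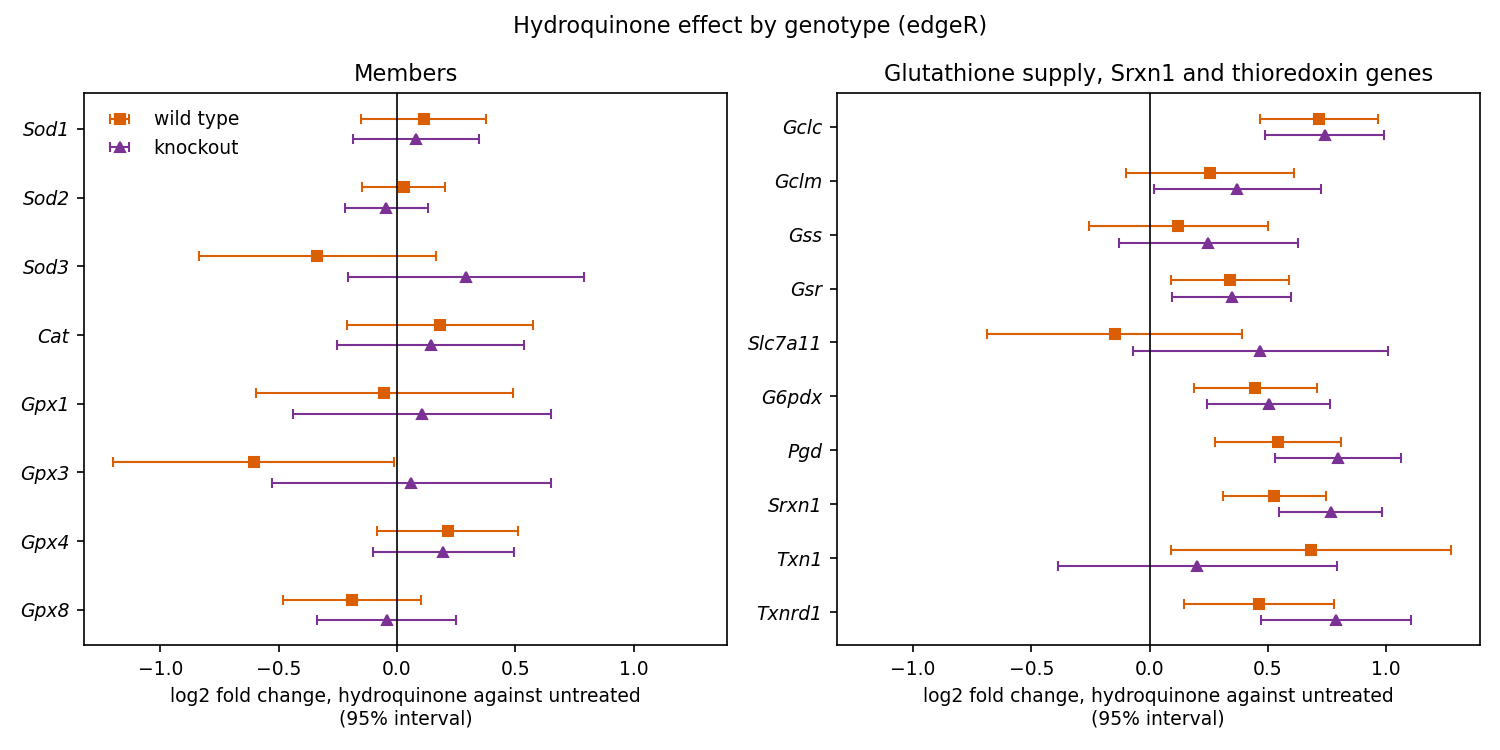
Log2 fold change of hydroquinone against untreated with its 95% interval from edgeR, in wild type (squares) and knockout (triangles), for the 8 members (left) and for the 7 glutathione supply genes with Srxn1, Txn1 and Txnrd1 (right). The member intervals straddle 0 apart from Gpx3 in wild type (-1.20 to -0.01), while those of Gclc, Pgd, Srxn1 and Txnrd1 lie above 0 in both genotypes. The intervals are not adjusted for the number of genes. After adjustment edgeR called none of the plotted genes in wild type, and Gclc, Pgd and Srxn1 in knockout.

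The lists for copper supply, selenium, catalase import and oxidant producers held no called gene in the average by edgeR, DESeq2 or limma. In edgeR 0.0845% of all tested genes were called, so counts of 0 are near that share. The shares in DESeq2 and limma are not given here. The 5 genes that deliver copper, the metal of SOD1 and SOD3, all had log2 fold changes between 0.02 and 0.29, with 0 below an unadjusted p of 0.05. The first by p were the copper pump Atp7a (0.29, SE 0.21, edgeR adjusted p = 0.91) and Ccs, the copper chaperone of SOD1 (0.08, SE 0.13, edgeR adjusted p = 0.95). Of 9 genes for selenoprotein synthesis and selenium supply, needed for GPX1, GPX3 and GPX4, 4 lay above and 5 below 0 and none had p below 0.05. The first by p were Pstk (-0.32, SE 0.18) and Sepsecs (0.11, SE 0.07), enzymes that build selenocysteine on its transfer RNA, both with an edgeR adjusted p of 0.91. Of 9 genes for the import of catalase into peroxisomes, 5 lay above and 4 below 0 and none had p below 0.05. Of 19 producers of superoxide or hydrogen peroxide, 15 were tested, 12 lay above and 3 below 0, and 4 had p below 0.05, against 5.72% of all tested genes, led by the aldehyde oxidase Aox1 (0.42, SE 0.13) and the D-aspartate oxidase Ddo (-0.47, SE 0.14), both with an edgeR adjusted p of 0.76. In wild type DESeq2 called Ddo lower, which edgeR and limma did not.

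The remaining glutathione peroxidases were scarce. Gpx7, the other cysteine peroxidase of the endoplasmic reticulum, lay between 5.03 and 7.57 CPM in all 16 libraries, with a log2 fold change under hydroquinone of -0.0067 (SE 0.13), and Gpx5 and Gpx6 were not tested. Gpx2, the intestinal selenocysteine peroxidase whose active-site stretch is nearest to that of Gpx1, was at 0.607, 0.743, 0 and 0.827 CPM in untreated and 3.68, 2.10, 1.11 and 1.70 CPM in treated wild type. In knockout Gpx2 was at 1.05, 0.523, 0.193 and 0.336 CPM without and 0.263, 5.20, 2.36 and 1.37 CPM with hydroquinone. The wild-type groups did not overlap and the knockout groups did, through replicate 1 of knockout with hydroquinone. The fitted log2 fold change of Gpx2 was 2.05 (SE 0.63, 95% interval 0.71 to 3.40) with an unadjusted p of 0.0054, but its adjusted p was 0.76 in edgeR and it passed in 0 of 26 alternatives. No gene of the 7 lists was called by edgeR, DESeq2 or limma in any comparison of genotype or in the interaction. In each of these edgeR called 0.0% of all tested genes, so the count says nothing particular about the lists. The shares in DESeq2 and limma are not given here.

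Promoters were read because the called genes are known targets of NRF2, the factor that binds the antioxidant response element. The core TGACNNNGC was searched on both strands in RefSeq windows (GRCm38.p6) of 250 bases before to 50 after each start site, and 12.4% of 32851 such windows hold it. The table matched 7 of the 8 members, all but Sod3, and only the Sod1 window held the core, 56 bases before the start site. The stretch around it, at chr16:90220690-90220730 on the plus strand, is printed beside that of Txnrd1, at chr10:82859098-82859138 on the plus strand and 92 bases before the second of 3 start sites, with the match in capitals (both read on the opposite strand):
Sod1: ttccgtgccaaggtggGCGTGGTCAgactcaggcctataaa
Txnrd1: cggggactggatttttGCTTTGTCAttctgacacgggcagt
Srxn1 and 1 of 2 Pgd windows held the core 28 and 3 bases after the start site, and Gclc was not matched. The looser form TGANNNNGC, which contains the core, occurs in 41.3% of windows and added no member.

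The members differed in how much they varied between libraries. The coefficient of variation over the 16 libraries, a description across groups, was 5.72% for Sod2, which only 0.429% of tested genes matched or undercut (this share counts Sod2 itself), and 10.9% for Sod1. It was 12.9% for Gpx8, 13.9% for Gpx4 and 17.6% for Cat, below the median of 19.9% over tested genes. Gpx1 (24.2%) and the genes of the secreted enzymes, Sod3 (28.9%) and Gpx3 (32.8%), lay above it. The highest library exceeded the lowest 1.22-fold for Sod2, 2.53-fold for Sod3, 2.70-fold for Gpx3 and 3.18-fold for Gpx1, with a median of 2.07-fold over tested genes.

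**Figure D3:**
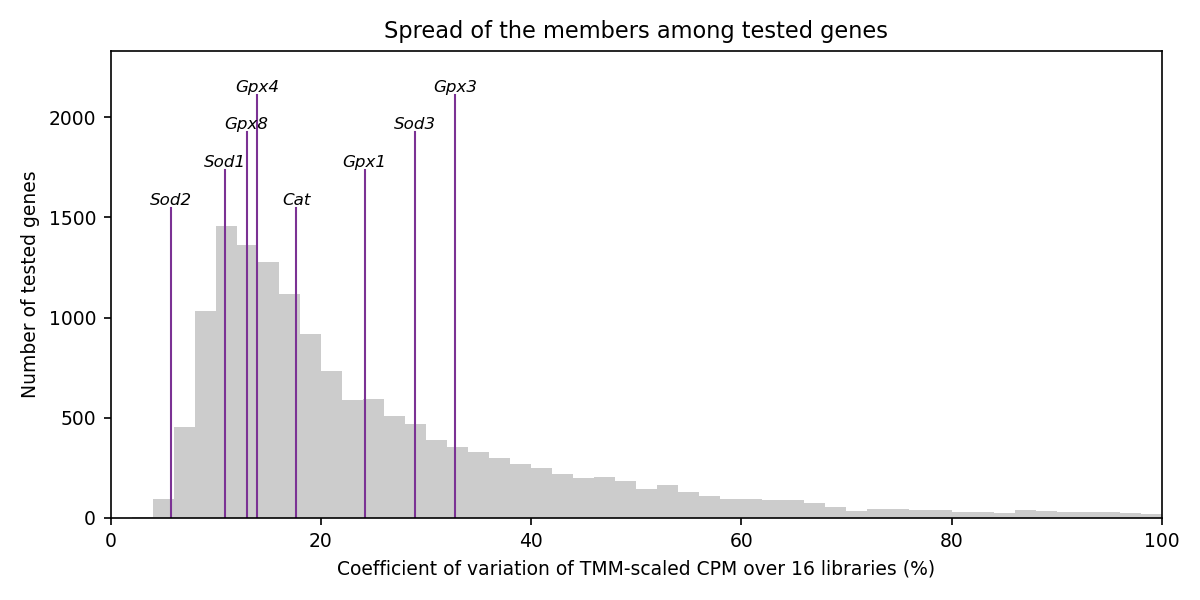
Histogram of the coefficient of variation of TMM-scaled CPM over 16 libraries (horizontal axis, %, shown up to 100) for the tested genes (vertical axis, number of genes), with a vertical line for each member; line heights only separate the names. Sod2 lies at the left edge at 5.72%, and Gpx1, Sod3 and Gpx3 lie to the right of the median of 19.9%.

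The members did not vary as 1 block. Of 28 pairs of members, compared over the 13 mice (eyes of a mouse averaged) in log2(CPM + 1), 2 pairs passed an adjusted p of 0.05. Sod3 and Gpx3, the genes of the secreted enzymes, had Pearson's r of 0.91 (permutation p = 5.0e-05, adjusted p = 0.0014) and Spearman's rho of 0.86 (permutation p = 3.1e-04, adjusted p = 0.0087). Without the 2 mice farthest from the median of Sod3 r was 0.87, and it was 0.95 in the 9 libraries without and 0.88 in the 7 with a letter in the identifier. Sod1 and Gpx4 had Pearson's r of 0.78 (permutation p = 0.0018, adjusted p = 0.026) and Spearman's rho of 0.82 (permutation p = 7.6e-04, adjusted p = 0.011). Without the 2 mice farthest from the median of Sod1 r was 0.83, and it was 0.54 and 0.95 in the libraries without and with a letter. The values of a library share its scaling, and mice of the 4 groups were pooled.

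Against 13 marker lists, 3 of 104 relations over the 13 mice passed an adjusted p of 0.05. Cat followed the RPE markers, with Pearson's r of 0.87 (permutation p = 1.6e-04, adjusted p = 0.0055) and Spearman's rho of 0.86 (permutation p = 3.4e-04, adjusted p = 0.018). Without the 2 mice farthest from the median of the marker score r was 0.91, and it was 0.79 and 0.96 in libraries without and with a letter. Among single RPE markers Cat was nearest to Rlbp1 (r = 0.87 over 16 libraries, a description), which encodes a carrier of retinal. Sod3 and Gpx3 followed the ciliary and iris epithelium list, Sod3 with Pearson's r of 0.92 (permutation p = 2.0e-05, adjusted p = 0.0021) and Spearman's rho of 0.85 (permutation p = 5.3e-04, adjusted p = 0.018). Gpx3 had Pearson's r of 0.91 (permutation p = 4.0e-05, adjusted p = 0.0021) and Spearman's rho of 0.85 (permutation p = 4.7e-04, adjusted p = 0.018). Without the 2 farthest mice r was 0.87 for Sod3 and 0.84 for Gpx3, and in libraries without and with a letter it was 0.85 and 0.92 for Sod3 and 0.87 and 0.94 for Gpx3. Of the 6 markers, Zic1 (r = 0.89 with Gpx3 over 16 libraries) and Col9a2 (0.83) rank first and Aqp1 had the opposite sign (-0.47).

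**Figure D4:**
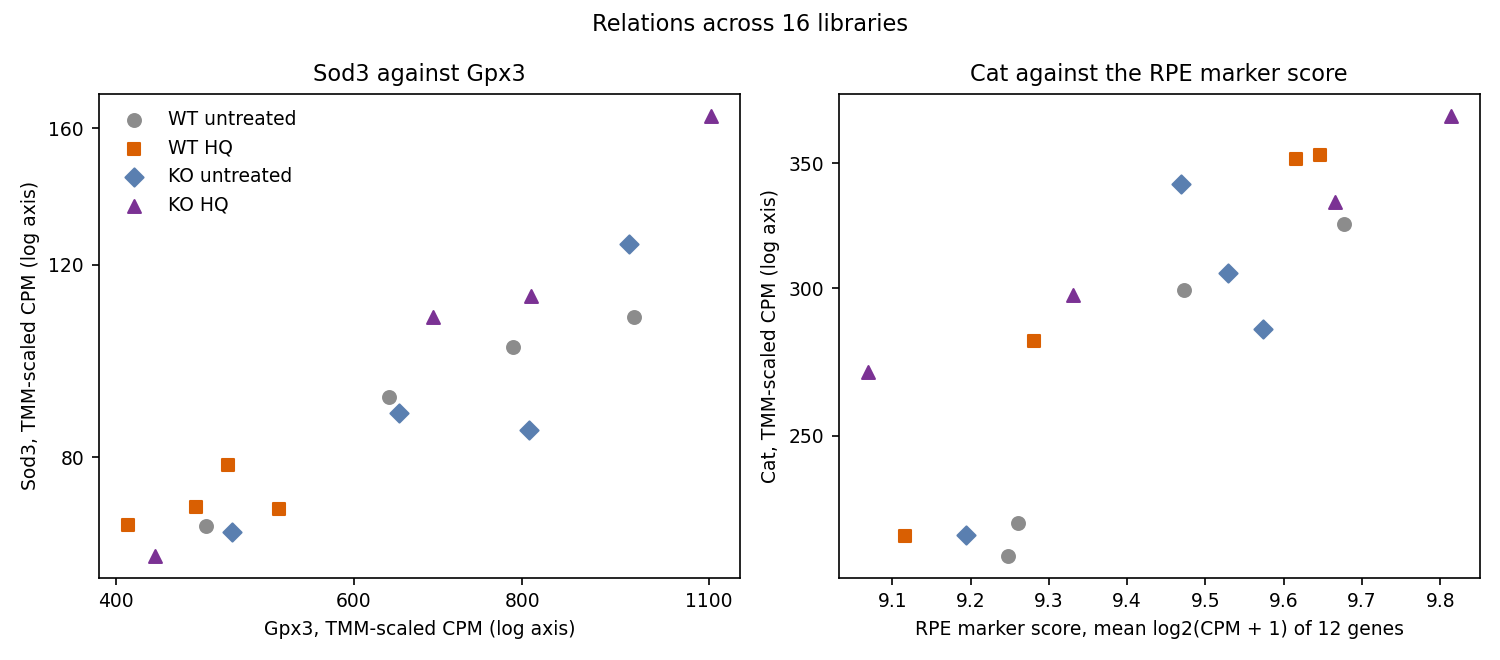
Left, Sod3 against Gpx3 in TMM-scaled CPM, both axes logarithmic; right, Cat (CPM, logarithmic axis) against the RPE marker score, the mean log2(CPM + 1) of 12 genes; each point is 1 of 16 libraries, by group. The 4 libraries of wild type with hydroquinone sit together at the low end of Sod3 and Gpx3, where 1 library of each other group lies too. They are spread along the relation of Cat with the RPE score.

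The 3 tested genes most like each member by Pearson's r of log2(CPM + 1) over the 16 libraries are given as a description. For Gpx3 they were Mfap4 (0.96), Cldn19 (0.96) and Lhx2 (0.95), and for Sod3 they were Mfap4 (0.94), Cldn19 (0.94) and Fbln1 (0.93), so both share their first 2. For Cat they were Gnpda1 (0.95), Inpp5k (0.94) and Tbc1d1 (0.93). For Gpx4 they were Mt1 (0.93), the metallothionein gene, then Gpx4-ps2 (0.84), its own processed copy, and Fbxw4 (0.84). For Gpx8 they were Selenof (0.91), S100a1 (0.87) and Tmem50a (0.85), and for Gpx1 Gm4149 (0.96), Traf4 (0.94) and Rps10 (0.94). For Sod1 they were Tdrp (0.88), Atp6v1g1 (0.85) and Eci1 (0.82), and for Sod2 Myl4 (0.80), Ptcd2 (0.75) and Acad8 (0.74), the lowest first value of the 8.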

How the data were processed

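RNA sequencing was run on RPE lifted with forceps from the choroid, 16 libraries of 1 eye each, on an Illumina NovaSeq, per the labels' protocols. The authors deposited 1 table per Ensembl gene, read here as counts because it holds no fractional value and its columns sum to unequal totals. Its name calls it FPKM, so the unit is an inference on which every level rests. The submitters' processing notes list STAR, Cufflinks, DESeq2 and mm10 with no role. Strand use is not given in the sources used here.

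Symbols came from GENCODE vM21 for 51633 of 51912 identifiers. Genes averaging 1 CPM or more (15380, 99.8% of counts) were tested with edgeR 4.0.16 (quasi-likelihood F test, TMM, R 4.3.3) in 1 model of 4 group means, with Benjamini-Hochberg adjustment and a threshold of 0.05. A standard error is the fold change divided by the root of F. The recovery of 2-fold changes was tested on simulated counts of independent libraries, for genes drawn from all tested genes. DESeq2 1.42.0 and limma 3.58.1 (log2(CPM + 1), mouse as random block) were alternatives. Correlations used 100000 permutations.

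The members and lists were chosen with earlier results of these data known. Named genes were the members, at most 4 called genes per list or the first 2 by p, and the 3 genes most alike each member; 1 list's first genes are not reported here. The titles give 13 mice, while the protocol gives 4 per group; eyes of a mouse were treated as separate, so p-values measure the spread between libraries. Replicate numbers follow accession order.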

Additional observations from a re-analysis of the deposited data

How the results depend on the processing

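No member passed the threshold in any of 1304 tests under 29 alternatives (median-of-ratios scaling, both other filters, DESeq2, limma, fewer groups, summed eyes, covariates, subsets and each library left out), with a smallest adjusted p of 0.29, so the count of 0 held in each. In the main fit at most 0.0845% of all tested genes were called in any comparison, so a count of 0 members is near that share. The shares of all genes called under the alternatives are not given here. Signs turned for values near 0 and also for Cat under hydroquinone (0.16 averaged, 0.14 in knockout) and Gpx1 in knockout averaged over treatment (-0.16), and the cause was not tested. Within libraries whose identifiers carry no letter the log2 values were Sod1 -0.00829 and Gpx1 0.0552 (hydroquinone in wild type), Sod1 -0.0582, Cat -0.22 and Gpx1 -0.00862 (hydroquinone in knockout), Sod1 -0.0333 and Cat -0.0764 (hydroquinone averaged), Sod2 -0.0147, Gpx4 -0.0409 and Gpx8 -0.00187 (knockout averaged). With the rod marker score as covariate the log2 values were Gpx3 -0.0535 (hydroquinone in knockout), Gpx4 -0.00316 (knockout averaged). Without the 2 libraries with the fewest detected genes the log2 values were Gpx3 -0.0147 (hydroquinone in knockout), Sod2 0.0128 and Gpx1 -0.0033 (hydroquinone averaged). With the eyes of a mouse summed the log2 values were Gpx8 0.0079 (hydroquinone in knockout), Sod2 0.0158 and Sod3 0.0194 (hydroquinone averaged). Within libraries whose identifiers carry a letter the log2 value was Gpx8 0.0568 (hydroquinone in knockout). Without the library highest in rod markers of each group (added after seeing the data) the log2 values were Sod2 0.0055, Sod3 0.0647 and Gpx1 -0.13 (hydroquinone averaged), Sod1 0.0596 and Gpx1 0.00932 (knockout averaged). With the identifier form as covariate the log2 value was Sod3 0.0148 (hydroquinone averaged). In limma with the mouse as random block the log2 value was Gpx1 -0.0376 (hydroquinone averaged). With no filter on low counts the log2 value was Sod1 0.00847 (knockout averaged). With each library left out in turn, the members whose sign turned ranged as follows: for hydroquinone in wild type, Sod2 -0.0109 to 0.0645 and Gpx1 -0.32 to 0.18. For hydroquinone in knockout, Gpx3 -0.20 to 0.26 and Gpx8 -0.16 to 0.0433. For hydroquinone averaged, Sod2 -0.036 to 0.00983, Sod3 -0.16 to 0.0734 and Gpx1 -0.11 to 0.14. For knockout averaged, Sod1 -0.0494 to 0.0246 and Gpx4 -0.0182 to 0.0773. For hydroquinone averaged over genotype edgeR called 2, DESeq2 4 and limma 2 of 7 glutathione supply genes, and in wild type 0, 2 and 0. No paired analysis was possible because the replicate numbers follow accession order and pair no libraries. Members had at least 959 counts in every library, and the widest interval reached 2.83-fold from no change (Gpx3, interaction). Depth was not varied, and group size only by leaving libraries out or by subsets.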
